A study of Mus musculus with 17 samples.

Results

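A single RNA-seq library of mouse hippocampus was set against 6 control libraries of cultured mouse neurons, and genes were described by whether their level in the tissue lay above, below or inside the range of the 6 cultures. The tissue library came from mice given a control short hairpin RNA (shRNA) and no FC. Its source and tissue labels give hippocampus, while its growth protocol label describes primary neuron culture. The culture controls were 3 pairs of primary neuron libraries: the controls of an ADM experiment, the controls of a first ApoE particle experiment (set 1) and the neurons with control treatment of a second one (set 2). All were of the C57BL/6 strain, per the labels. FC and ADM are not spelled out there, and neither are age, sex, brain region of the cultures, days in culture or whether animals were pooled. These 7 libraries belong to a series of 17 that was made to examine treated neurons and brain. Of 22612 genes that had a value in every library of the series' 4 tables, 16659 reached at least 1 CPM (reads counted for the gene, scaled to a library total of 1000000) in at least 1 of the 7 libraries and were compared. Because the tissue is represented by 1 library, no test was made, and each statement below describes these libraries.

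The hippocampus is a mature tissue in which pyramidal and granule neurons lie among interneurons, astrocytes, microglia, oligodendrocytes with their myelin, and blood vessels. Primary neuron cultures are usually started from embryonic or newborn brain and carry over few of the other cells. Neurons that mature exchange growth-related cytoskeletal proteins for synaptic scaffolds, ion channels and adult receptor subunits. In brain, cholesterol cannot be drawn from the blood and is made locally, and apolipoprotein E (ApoE) from astrocytes carries it to neurons.

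Library totals were 18.17 M counts in the hippocampus library and 15.82 to 19.14 M in the culture controls. A further pair of hippocampus libraries that the comparison did not use, from control shRNA mice with FC (17.79 M) and from ApoE shRNA mice with FC (18.90 M), is given beside results. Apoe, the gene targeted by the ApoE shRNA, had 1697 CPM in the chosen hippocampus library, 2797 CPM in the control shRNA library with FC and 1384 CPM in the ApoE shRNA library. The control shRNA library with FC stood apart from the other hippocampus libraries in immune genes. Its 16 measured microglia markers summed to 2626 CPM, against 595 and 449 CPM in the other 2 hippocampus libraries, and its 8 markers of perivascular and blood myeloid cells summed to 2011 CPM, against 17.8 and 9.52 CPM. The culture sets were counted on annotations that differ in places: 791 of the 22612 genes have other start or end positions in at least 1 table. Set 2 differed more than 10-fold from both other sets in 31 genes, the ADM controls in 62 and set 1 in 5. Only genes with at least 10 CPM in every library of the higher side were counted. Exons of another gene overlap 17 of the 31, 5 of the 62 and 2 of the 5, and 35.5% of all genes compared. Tissue and culture are in separate tables, so the tissue and anything particular to its library, table or sequencing cannot be told apart. In RNA from whole tissue, a gene's level combines how many cells of a type are present with how much RNA each holds, and fewer cells of a type and less RNA per cell cannot be told apart.

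The hippocampus library lay above all 6 culture controls for 5647 genes, which is 33.9% of those compared. It lay below all 6 for 5167 genes (31%), and 5845 genes were inside the range. The distance to the nearest culture control was at least 4-fold for 793 genes above (4.76%) and for 397 genes below (2.38%). The culture range was itself wide, since the highest culture control exceeded the lowest 1.78-fold for the median gene. Genes above the range held 48.3% of the tissue's counts, against 19.9% to 25.4% of the counts of each culture control. Genes below the range held 25.8% of the tissue's counts and 46.7% to 54.1% of the cultures' counts. The direction of both differences is set by how the genes were sorted, so only the size of the shares is descriptive. CPM are shares of a library, so a higher share of some genes lowers that of all others. The median gene compared had a log2 difference between tissue and culture median of 0.00, and a median given with a list is the median of this difference over its genes compared. The 6 culture values of a gene are given as lowest, median and highest, or library by library. Close to the edges, 774 genes lay less than 10% above the range and 860 less than 10% below it, while 886 and 897 genes lay inside it within 10% of its upper and lower edge.

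The other hippocampus libraries mostly sat on the same side. Both lay above the culture range for 4345 of the 5647 genes (76.9%) and for 785 of the 793 genes at least 4-fold above (99%). Both lay below it for 3930 of the 5167 genes (76.1%) and for 375 of the 397 genes at least 4-fold below (94.5%). These libraries share their table and, as far as the labels say, their tissue with the chosen library. In the plot of gene lists, lists of cell types, pathways and gene families are ordered by how far they lean to either side. The counts of each list below are to be read beside the shares over all genes, 33.9% above and 31% below.

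**Figure D1:**
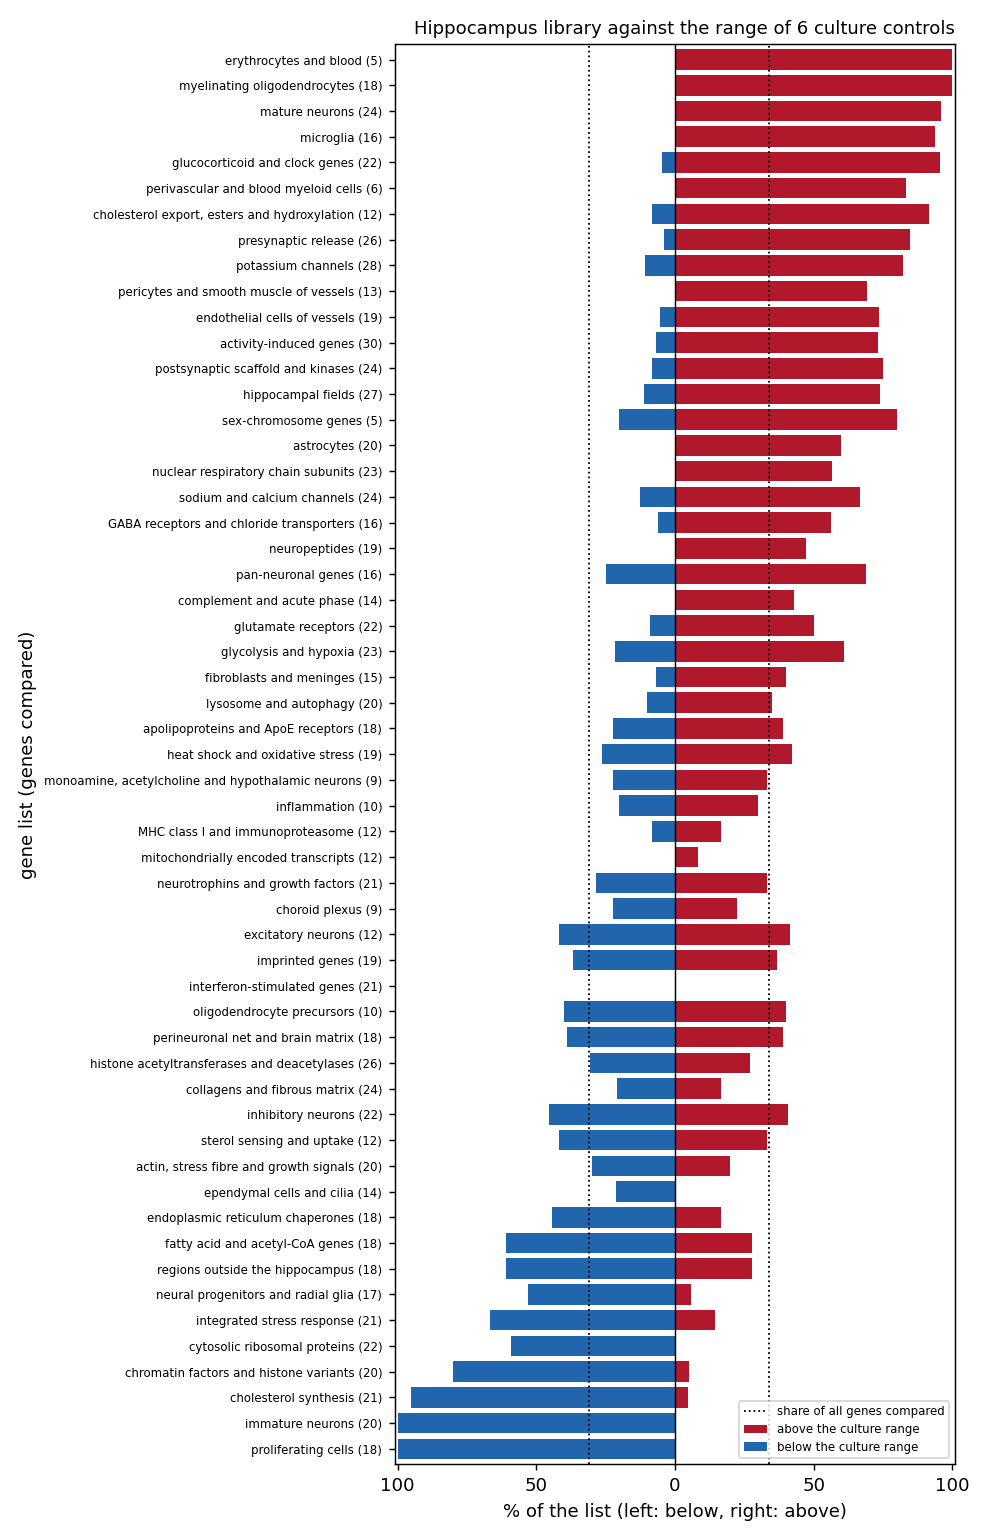
Share of each of 55 gene lists that lay above (right, red) or below (left, blue) the range of the 6 culture controls in the hippocampus library, in percent of the list's genes compared (number in parentheses; lists with at least 5 such genes). The dotted lines mark the shares over all genes compared, 33.9% above and 31% below; myelin, mature neuron and clock genes lie at the top, and proliferation, immature neuron and cholesterol synthesis genes at the bottom.

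Many of the genes farthest above the cultures are best known from oligodendrocytes, the myelin-forming cells, and from blood vessels. The farthest was Mobp (chr9:120149707-120181484), which encodes a protein of compact myelin. It had 456 CPM in the hippocampus library, against 0.119 and 0 CPM in the ADM controls, 0.316 and 0.339 CPM in the set 1 controls and 0.171 and 0 CPM in the set 2 controls. The tissue exceeded the nearest culture control 1345-fold, with an exact 95% counting interval of 617 to 3665; such intervals cover counting error only. Of the 15 named genes with the largest ratios above the range, Cldn11, Mag, Gjc3 and Bcas1 are also genes of oligodendrocytes, and Gpr17 marks their immediate precursors. Cldn11, the tight junction protein of myelin, had 90.1 CPM in hippocampus, against 0, 0.142 and 0.226 CPM in culture. Gpr17 had 44.1 CPM in hippocampus, against 0, 0.0559 and 0.116 CPM in culture; both Mobp and Gpr17 overlap an exon of another gene. Neither Cldn11's nor Gpr17's tissue value came near the culture range.

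Blood and vessel genes made up a further group of the 15. Hbb-bs (chr7:103826534-103828096), a beta globin of red cells, had 33.6 CPM in tissue and at most 1 count in any culture control, a ratio of 531 with an interval of 95 to 21010.1. Tie1, an endothelial receptor, had 15.1 CPM in tissue and 0, 0 and 0.0632 CPM in the cultures. Ly6c1, a surface protein of brain endothelium, had 24.5 CPM in tissue and 0, 0 and 0.116 CPM in the cultures. Slc22a8, an organic anion transporter of barrier cells, had 20.2 CPM in tissue and at most 0.0632 CPM in the cultures. These ratios rest on 1 or 2 counts in the nearest culture control, so their upper bounds reach far.

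Other kinds of genes made up the remaining 5. C1ql2 (chr1:120340582-120343174), a secreted synaptic protein of dentate granule cells, had 100.3 CPM in hippocampus, against 0.157, 0.49 and 0.684 CPM in culture. Gjb6, the connexin of astrocyte gap junctions, had 49.8 CPM in hippocampus, against 0, 0.058 and 0.342 CPM in culture. Zfp831, a zinc finger gene, had 56 CPM in hippocampus, against 0, 0.058 and 0.209 CPM in culture. Ntn5, a netrin-related gene, had 21.2 CPM in tissue and at most 0.126 CPM in the cultures. Slc9a4, a sodium-proton exchanger, had 22.8 CPM in the chosen hippocampus library, 3.77 CPM in the control shRNA library with FC and at most 0.157 CPM in the cultures. All 15 were above the culture range in all 3 hippocampus libraries.

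The gene farthest below the cultures was Xist (chrX:103460375-103483217), the RNA that coats the inactive X chromosome in female cells, whose exons overlap those of its antisense gene Tsix. It had 0.33 CPM in the hippocampus library, against 2048 and 1642 CPM in the ADM controls, 1049.8 and 1472 CPM in the set 1 controls and 802 and 771 CPM in the set 2 controls. The Y-linked genes Ddx3y, Uty, Kdm5d and Eif2s3y lay above the range. Kdm5d had 44.3 CPM in hippocampus, against 11.3, 20.3 and 26.8 CPM in culture. Each culture control therefore held both Xist and Y-linked transcripts, while the hippocampus library held Y-linked transcripts and Xist near 0. The sexes of the animals and cultures are not given in the labels, and the part of sex in the other differences was not tested.

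The rest of the 15 genes farthest below included many genes of growing neurons and dividing cells. Draxin, a guidance protein of growing axons, had 0.661 CPM in hippocampus, against 73.4, 76.4 and 115 CPM in culture. St8sia2, the enzyme that adds polysialic acid to the adhesion molecule NCAM in young neurons, had 4.57 CPM in hippocampus, against 423, 459 and 505 CPM in culture. Cd24a, a surface protein of differentiating neurons, had 8.59 CPM in hippocampus, against 672, 848 and 930.4 CPM in culture. Each of these stood far under the lowest culture value in the hippocampus library. Dpysl3, a collapsin response mediator of growth cones, had 69.7 CPM in hippocampus, against 3994 and 4317 CPM in the ADM controls, 2969.9 and 3369 CPM in the set 1 controls and 4075 and 4109 CPM in the set 2 controls. Igfbpl1, an immature neuron gene, had 0.33 CPM in tissue and 13.8, 40.2 and 79.1 CPM in the cultures. Pbk, Ckap2 and Top2a belong to mitosis and DNA untangling, and Top2a had 0.991 CPM in tissue and 42.2, 52.3 and 78.1 CPM in the cultures. Six3, a forebrain homeobox factor, had 0.11 CPM in tissue and 12.2, 17.5 and 22 CPM in the cultures. The others were B3gnt5, Arhgap28, Trim67, Dach2 and Tshr, which had 0.22 (Tshr) to 5.83 CPM (Trim67) in tissue. In the culture controls the lowest values of these 5 were 9.05 (Tshr) to 274 CPM (Trim67).

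Myelin genes lay above the cultures throughout. All 18 markers of myelinating oligodendrocytes that were compared lay above the culture range, 17 of them at least 4-fold, and their median log2 difference to the culture median was 6.79. The summed level of the list was 4095 CPM in hippocampus, against 65.8 to 119 CPM in culture. Mbp, the major protein of the cytoplasmic face of myelin, had 1817 CPM in hippocampus, against 11.9, 18.5 and 26 CPM in culture. Sox10, the transcription factor of the lineage, had 44.5 CPM in hippocampus, against 0, 0.029 and 0.696 CPM in culture. The smallest difference was that of Mog, a minor outer myelin protein, with 30.2 CPM in hippocampus, against 9.63, 12.8 and 24.6 CPM in culture. Cnp, a myelin enzyme whose exons overlap another gene, had 210.003 CPM in hippocampus, against 10.2, 27.5 and 51.1 CPM in culture. Fa2h, an enzyme of myelin lipids that set 2 lists without values and that was therefore not compared, had 517 counts in tissue and at most 1 count in the ADM and set 1 controls.

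Precursors of oligodendrocytes showed no common direction. Of 10 markers, 4 lay above and 4 below the range (median 0.62). Pdgfra, the growth factor receptor of these precursors, had 59.6 CPM in hippocampus, against 0.464, 1.29 and 4.87 CPM in culture. Olig2, a transcription factor of the whole lineage, had 26.1 CPM in hippocampus, against 9.11, 19.8 and 36 CPM in culture and was inside the range. Vcan, a matrix proteoglycan, had 25.6 CPM in hippocampus, against 131, 375 and 406 CPM in culture. Cacng4, a regulatory subunit of glutamate receptors, had 21 CPM in hippocampus, against 201, 222 and 257 CPM in culture. Vcan, Cacng4 and Ptprz1, all lower in tissue, are also expressed by immature neurons or radial glia. The part of such cells in these differences was not tested.

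As a sum, astrocyte markers were present in every culture, at levels that differed between the sets, though some single markers were near 0. Of 20 markers, 12 lay above the range and none below, with a median log2 difference of 1.49. The summed level was 11018 CPM in hippocampus, against 1167 to 6628 CPM in culture, and within the cultures it was lowest in ADM control 1 (1167 CPM) and highest in set 1 control 1 (6628 CPM). Without the set 1 controls, 19 of the 20 markers lay above the range. Apoe had 1697 CPM in the hippocampus library, against 159.7 and 624 CPM in the ADM controls, 1569 and 1099.7 CPM in the set 1 controls and 688 and 657 CPM in the set 2 controls. The tissue value was above the range only narrowly, and the ApoE shRNA library, with 1384 CPM, lay inside it. Slc1a2, the main glutamate transporter of astrocytes, had 3297 CPM in hippocampus, against 142, 217 and 559 CPM in culture. S100b, a calcium-binding protein of mature astrocytes, had 85.3 CPM in hippocampus, against 0.298, 1.13 and 2.15 CPM in culture. Agt, the angiotensin precursor, had 28.4 CPM in hippocampus, against 0.179, 1.61 and 4.17 CPM in culture. Gfap, the intermediate filament of astrocytes, had 569.6 CPM in hippocampus, against 12, 327 and 612 CPM in culture and was inside the range, as was Aqp4, the water channel, with 166 CPM in hippocampus, against 14.1, 129 and 238 CPM in culture.

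Microglia markers lay above the range for 15 of 16 genes, with a median log2 difference of 3.20. Their sum was 595 CPM in hippocampus, against 33.9 to 170.4 CPM in culture. Tmem119, a marker of resident microglia, had 26.6 CPM in hippocampus, against 0, 0.0587 and 0.19 CPM in culture. P2ry12, the receptor by which microglia sense nucleotides, had 29.9 CPM in hippocampus, against 0, 0.247 and 0.509 CPM in culture. Csf1r, the receptor on which microglia depend for survival, had 108 CPM in hippocampus, against 0.399, 2.54 and 5.69 CPM in culture. Aif1, which encodes the common marker Iba1, had 3.25 CPM in hippocampus, against 0.171, 0.461 and 0.993 CPM in culture. C1qa, a complement subunit made by microglia, had 46.7 CPM in hippocampus, against 0, 5.24 and 17.8 CPM in culture. Cd68, a lysosomal protein of phagocytes, had 6.61 CPM in hippocampus, against 3.09, 5.66 and 14.4 CPM in culture and was the only compared marker inside the range. Taken against all 14 culture libraries, treated ones included, 8 of the 16 markers lay above the range. Trem2, Tyrobp, Itgam and Siglech are not listed or hold no value in at least 1 table and were not compared.

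Markers of vessels followed the same direction. Of 19 endothelial markers, 14 lay above the range and 1 below, with a median log2 difference of 4.61. Cldn5, the tight junction protein of the blood-brain barrier, had 719 counts in the hippocampus library and 0 in all 4 libraries of the set 1 and set 2 controls; the ADM table does not list it. Flt1, a receptor for vascular endothelial growth factor, had 76.4 CPM in hippocampus, against 0.418, 0.768 and 0.927 CPM in culture. Abcb1a, an efflux pump of the barrier, had 33.6 CPM in hippocampus, against 0, 0.11 and 0.456 CPM in culture. The gene below the range, Slc7a5, an amino acid transporter, had 69.5 CPM in hippocampus, against 134, 152 and 184 CPM in culture. Of 13 pericyte and smooth muscle markers, 9 lay above and none below (median 4.42); without ADM control 1, 3 lay below. Pdgfrb, the receptor that recruits pericytes, had 30.9 CPM in hippocampus, against 4.88, 8.35 and 11.1 CPM in culture. Vtn, a matrix protein of brain pericytes, had 74.3 CPM in hippocampus, against 0.104, 0.366 and 1.74 CPM in culture. Rgs5, a signalling regulator of pericytes, had 107 CPM in hippocampus, against 0.836, 1.47 and 11.1 CPM in culture. Acta2, the actin of smooth muscle, went the other way at the median, with 12.8 CPM in hippocampus, against 1.37, 48.3 and 139 CPM in culture, and was inside a range that spanned the cultures widely.

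Markers of the remaining cell types were mixed. Of 15 fibroblast and meninges markers, 6 lay above and 1 below (median 1.16). Col1a1, the main collagen of connective tissue, had 9.3 CPM in hippocampus, against 3.63, 5.95 and 28.1 CPM in culture and was inside the range, while Igf2, a growth factor of meninges and vessels, had 54.1 CPM in hippocampus, against 0.114, 2.26 and 3.55 CPM in culture. None of 14 markers of ependymal cells lay above the range and 3 lay below (median -0.41). Foxj1, the master regulator of motile cilia, had 7.21 CPM in hippocampus, against 9.4, 31.7 and 59.8 CPM in culture. Of 9 choroid plexus markers, 2 lay above and 2 below (median -0.61). Ttr, the thyroid hormone carrier of choroid plexus, had 1.05 CPM in hippocampus, against 0.595, 16.8 and 58 CPM in culture. It stood at 33.8 CPM in the control shRNA library with FC. Kl, which encodes Klotho and is also expressed by hippocampal neurons, had 21.4 CPM in hippocampus, against 0, 0.406 and 0.731 CPM in culture. Without ADM control 1, 5 choroid plexus markers lay below, and without the set 2 controls 5 ependymal markers did.

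All 5 red cell genes compared lay above the range. Hba-a1, an alpha globin, had 29.7 CPM in hippocampus, against 0, 0.0855 and 0.418 CPM in culture; it is nearly identical to Hba-a2, so reads could be split between them. Of 6 perivascular and blood myeloid markers, 5 lay above (median 3.11). Mrc1, the mannose receptor of perivascular macrophages, had 4.79 CPM in hippocampus, against 0.238, 1.14 and 4.75 CPM in culture, just outside the range. Only 3 lymphocyte markers could be compared. Cd3e, a subunit of the T cell receptor complex, had 3 counts in the hippocampus library and 0 in the set 1 controls, and 84 in the control shRNA library with FC. The antibody segments Ighm and Igkc, also not compared, had 238 and 461 counts in the chosen hippocampus library. They had 3750 and 3722 counts in the control shRNA library with FC, and 198 and 2 in the ApoE shRNA library. In the culture controls with a value, Ighm had at most 4 counts and Igkc at most 1. Jchain, which joins antibody chains, had 7.49 CPM in the chosen hippocampus library, 67.5 and 0.317 CPM in the libraries with FC (control shRNA, then ApoE shRNA) and at most 0.678 CPM in culture.

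**Figure D2:**
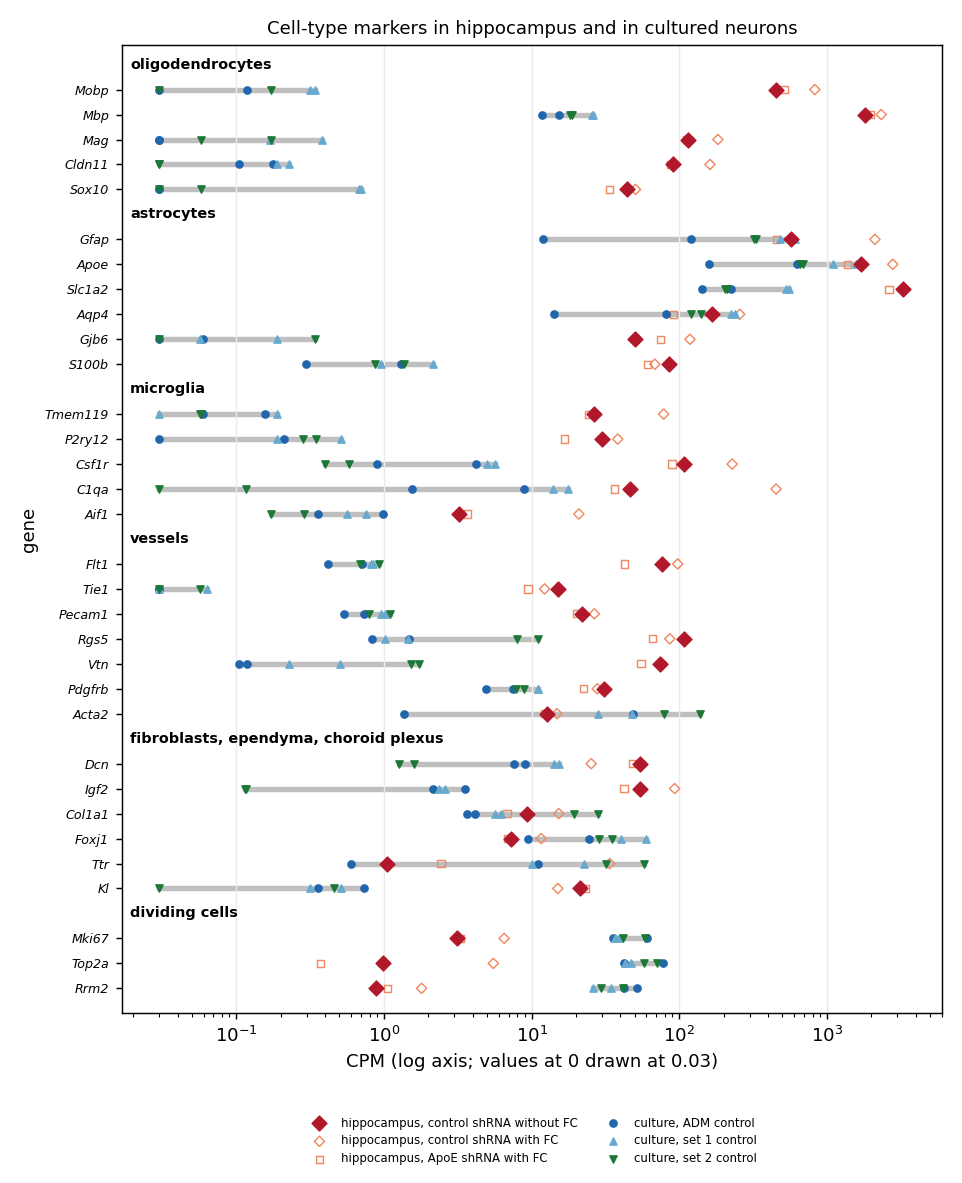
CPM of marker genes of glia, vessels, other non-neuronal cells and dividing cells, on a log axis with values at 0 drawn at 0.03 CPM; red and orange symbols are the hippocampus libraries (filled, the chosen library), blue and green symbols the 6 culture controls, and grey bars span the culture range. In the chosen library oligodendrocyte, microglia and vessel markers other than Acta2 lie to the right of the bars, Gfap, Aqp4, Acta2, Col1a1 and Ttr lie on them, and Mki67, Top2a, Rrm2 and Foxj1 lie to the left.

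Genes of cell division were low in the tissue. All 18 markers of proliferating cells lay below the range, with a median log2 difference of -4.45 and a sum of 61.3 CPM in hippocampus, against 311 to 477 CPM in culture. Mki67, a protein of the mitotic chromosome surface, had 3.14 CPM in hippocampus, against 35.7, 40.3 and 60.4 CPM in culture. Rrm2, the subunit that limits deoxynucleotide synthesis, had 0.881 CPM in hippocampus, against 26, 38 and 51.7 CPM in culture. Pcna, the clamp of DNA polymerase, differed least, with 39.3 CPM in hippocampus, against 65.9, 74.3 and 82.2 CPM in culture. Of 17 markers of neural progenitors and radial glia, 9 lay below and 1 above (median -0.60). Nes, the intermediate filament nestin, had 11.1 CPM in hippocampus, against 72.8, 102 and 222 CPM in culture. Fabp7, the lipid-binding protein of radial glia, had 17.6 CPM in hippocampus, against 248, 504 and 587 CPM in culture. Tnc, a matrix glycoprotein of germinal zones, had 6.94 CPM in hippocampus, against 74.7, 133 and 206 CPM in culture. Hes1, a target of Notch signalling, was the gene above, with 12.8 CPM in hippocampus, against 3.09, 4.39 and 5.12 CPM in culture.

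Immature neuron genes were lower and mature neuron genes higher in the tissue, with a single exception among 44 genes. All 20 immature neuron genes lay below the range, with a median log2 difference of -3.11, and their sum was 2727 CPM in hippocampus, against 19694 to 23749.7 CPM in culture. Dcx, the microtubule protein doublecortin of migrating neurons, had 35 CPM in hippocampus, against 2733 and 2352 CPM in the ADM controls, 996 and 1327 CPM in the set 1 controls and 1828 and 1827 CPM in the set 2 controls. Sox11, a transcription factor of newborn neurons, had 28.5 CPM in hippocampus, against 266, 527 and 1057 CPM in culture. Tubb3, the neuronal beta tubulin, had 231 CPM in hippocampus, against 1292, 1607 and 1988 CPM in culture. Gap43, the growth cone protein, had 148 CPM in hippocampus, against 806, 1095 and 1204 CPM in culture. Stmn3, a regulator of microtubules, lay closest to the range, with 327 CPM in hippocampus, against 418, 516 and 644 CPM in culture.

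Of 24 mature neuron genes, 23 lay above the range and none below, with a median log2 difference of 2.04 and a sum of 14651 CPM in hippocampus, against 2815 to 4057 CPM in culture. Camk2a, the alpha subunit of the calcium-dependent kinase of excitatory synapses, had 4156 CPM in hippocampus, against 114 and 189.5 CPM in the ADM controls, 353 and 388 CPM in the set 1 controls and 179 and 179 CPM in the set 2 controls. Hpca, the calcium sensor hippocalcin, had 1064 CPM in hippocampus, against 29, 58.2 and 117 CPM in culture. Rbfox3, which encodes the nuclear marker NeuN, had 284 CPM in hippocampus, against 83.3, 121 and 126 CPM in culture. Pvalb, the calcium buffer of fast-spiking interneurons, had 19.9 CPM in hippocampus, against 0, 0.219 and 1.13 CPM in culture. Gabra3, a receptor subunit that is high early in life, was the gene inside the range, with 71.9 CPM in hippocampus, against 36.1, 58 and 92.3 CPM in culture.

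**Figure D3:**
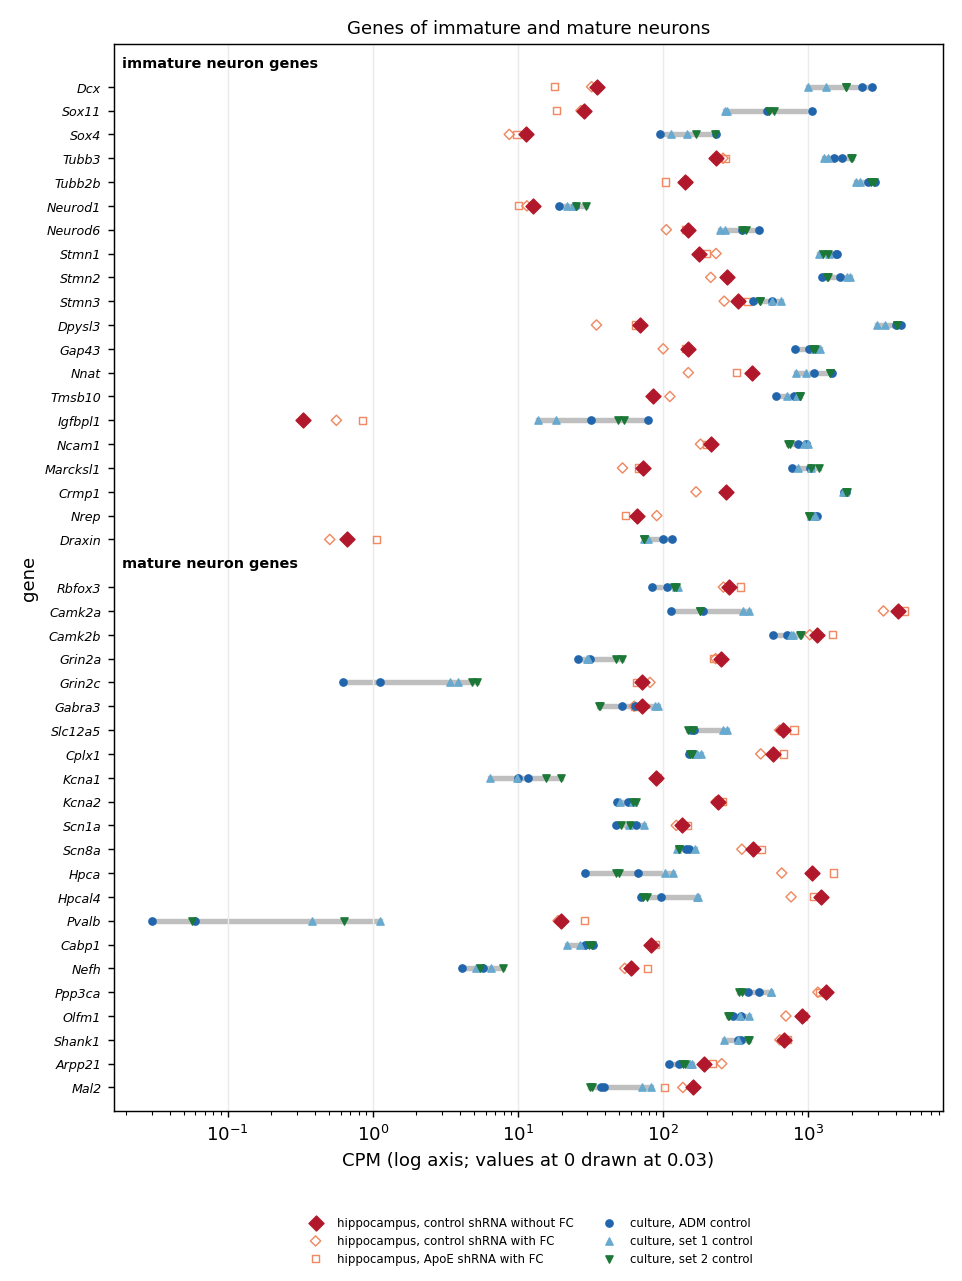
CPM of 20 immature neuron genes (upper block) and 22 of the 24 mature neuron genes (lower block) on a log axis, in the 3 hippocampus libraries (red and orange, filled for the chosen library) and the 6 culture controls (blue and green; grey bars span their range). Tissue symbols lie left of the bars in the whole upper block and right of them in the lower block except at Gabra3.

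Genes used to mark neurons in general were split. The neuron label of the cultures was checked against the sum of the 16 general markers. It was 13328 CPM in hippocampus, against 6365 to 8601 CPM in culture. Map2, Elavl3 and, from the immature neuron list, Tubb3 were abundant in every culture control and lower in the tissue. Of 16 general markers, 11 lay above and 4 below. Map2, the microtubule protein of dendrites, had 1252 CPM in hippocampus, against 1966, 2214 and 2655 CPM in culture. Elavl3, an RNA-binding protein of neurons, had 248 CPM in hippocampus, against 473, 499 and 726 CPM in culture. Snap25, a protein of the vesicle fusion machinery, had 1840.04 CPM in hippocampus, against 203, 322 and 392 CPM in culture. Eno2, the neuronal enolase, had 812 CPM in hippocampus, against 70.3, 111 and 119 CPM in culture. The list's median log2 difference was 1.30, and the 4 lower genes were Map2, Elavl3, Elavl4 and Uchl1.

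Synaptic genes lay mostly above the range. Of 26 presynaptic genes, 22 lay above and 1 below (median 1.05). Vamp1, a vesicle fusion protein, had 137 CPM in hippocampus, against 6.89, 9.06 and 12.4 CPM in culture. Syt2, a calcium sensor of fast release, had 32.6 CPM in hippocampus, against 1.45, 1.89 and 2.8 CPM in culture. Syn3, the synapsin of young neurons, was the gene below, with 12.1 CPM in hippocampus, against 38.7, 80.4 and 90.3 CPM in culture. Rab3a, a vesicle GTPase, had 491 CPM in hippocampus, against 225 and 240.3 CPM in the ADM controls, 377 and 314 CPM in the set 1 controls and 8.66 and 5.33 CPM in the set 2 controls. Its low edge came from set 2 alone. Of 24 postsynaptic genes, 18 lay above and 2 below (median 1.00). Icam5, an adhesion molecule of forebrain dendrites, had 156 CPM in hippocampus, against 5.42, 7.44 and 19.2 CPM in culture. Dlg4, which encodes the scaffold PSD-95, had 733 CPM in hippocampus, against 315, 371 and 438 CPM in culture. Dlg2 and Nlgn1 were below, and Nlgn1, a neuroligin, had 60.001 CPM in hippocampus, against 78.9, 88.5 and 104 CPM in culture.

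Receptor subunits differed by type. Of 22 glutamate receptor genes, 11 lay above and 2 below (median 0.49). Grin2a, the NMDA receptor subunit that replaces Grin2b during maturation, had 249 CPM in hippocampus, against 26, 30.9 and 52.1 CPM in culture. Grin2b had 619.5 CPM in hippocampus, against 585, 885 and 999 CPM in culture and was inside the range. Gria1, an AMPA receptor subunit, had 1014 CPM in hippocampus, against 295, 348 and 430.2 CPM in culture, while Gria2, the subunit that blocks calcium entry, had 763 CPM in hippocampus, against 650.2, 792 and 1235 CPM in culture and was inside it. Of 16 genes of GABA receptors and chloride transporters, 9 lay above and 1 below (median 0.51). Gabrd, the subunit of extrasynaptic receptors, had 25.8 CPM in hippocampus, against 2.68, 3.39 and 6.45 CPM in culture. Slc12a5, the potassium-chloride exporter KCC2 that makes GABA inhibitory, had 672 CPM in hippocampus, against 148, 161 and 276 CPM in culture. Slc12a2, the importer NKCC1, had 62.1 CPM in hippocampus, against 60.7, 67.5 and 75.3 CPM in culture and was inside the range. In the ApoE shRNA library 6 genes of this list lay below the range.

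Ion channel genes lay mostly above the range. Of 28 potassium channel genes, 23 lay above and 3 below (median 1.29). Kcnab2, an auxiliary subunit, had 773 CPM in hippocampus, against 25.8, 33.1 and 58.6 CPM in culture. Kcna1, an axonal channel, had 89.2 CPM in hippocampus, against 6.45, 10.9 and 19.7 CPM in culture. Kcnj9, a channel opened by G proteins, had 142 CPM in hippocampus, against 9.999, 12.6 and 18 CPM in culture. Of 24 sodium and calcium channel genes, 16 lay above and 3 below (median 0.68). Scn4b, a beta subunit, had 12.8 CPM in hippocampus, against 0.238, 0.474 and 0.811 CPM in culture. Scn3a, the sodium channel of embryonic neurons, had 66.5 CPM in hippocampus, against 159.8, 179.7 and 241 CPM in culture. Cacng8, a regulator of AMPA receptors in hippocampus, had 127 CPM in hippocampus, against 4.16, 21.9 and 35.2 CPM in culture.

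The hippocampus label was checked against markers of its fields. Of 27 genes that mark hippocampal fields, 20 lay above the range and 3 below, with a median log2 difference of 2.21. Prox1, the factor that specifies dentate granule cells, had 107 CPM in hippocampus, against 18.4, 24.6 and 35.9 CPM in culture. Fibcd1, a marker of pyramidal cells, had 176 CPM in hippocampus, against 6.53, 11.3 and 19.4 CPM in culture. In the control shRNA library with FC it had only 35.9 CPM. Rgs14, a signalling regulator of a small pyramidal field, had 91 CPM in hippocampus, against 0.684, 1.8 and 9.1 CPM in culture. Nptx1, a secreted pentraxin of synapses, had 693 CPM in hippocampus, against 17.3, 22.1 and 30.5 CPM in culture. Lct, which encodes lactase, had 23.7 CPM in hippocampus, against 0.0632, 0.191 and 0.357 CPM in culture.

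Markers of other brain regions leaned the other way: of 18, 5 lay above and 11 below (median -0.49). Against all 14 culture libraries 6 lay below. Cux2, a factor of upper cortical layers, had 43.2 CPM in hippocampus, against 69.5, 98.5 and 123 CPM in culture. Foxp2, a factor of deep cortical layers and striatum, had 1.49 CPM in hippocampus, against 16.2, 25.1 and 33.3 CPM in culture. Lhx9 was above, with 14.9 CPM in hippocampus, against 0.985, 1.31 and 2.88 CPM in culture. Of 9 markers of monoamine, acetylcholine and hypothalamic neurons, 3 lay above and 2 below (median 0.47). Th, the first enzyme of dopamine synthesis, had 18 counts in the hippocampus library and 3 to 14 in the culture controls, under the minimum level for the comparison.

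Genes of excitatory neurons lay on both sides of the range. Slc17a7, the vesicular glutamate transporter VGLUT1 of hippocampus and cortex, had 1556 CPM in hippocampus, against 43.2, 63.6 and 161 CPM in culture. Slc17a6, the transporter VGLUT2 that is used early in life and in subcortical neurons, had 15.5 CPM in hippocampus, against 24, 60.6 and 68.1 CPM in culture. Of 12 excitatory genes, 5 lay above and 5 below (median -0.01), and 2 lay below the range of all 14 culture libraries. Of 22 inhibitory neuron genes, 9 lay above and 10 below (median -0.13). Gad1, the enzyme that makes GABA, had 344 CPM in hippocampus, against 166, 190.4 and 219 CPM in culture. Sst, the peptide somatostatin, had 219 CPM in hippocampus, against 56.2, 97.4 and 113 CPM in culture. The genes below included factors of interneuron development, such as Dlx1 with 43.2 CPM in hippocampus, against 73.6, 106 and 143 CPM in culture and Sp8 with 2.09 CPM in hippocampus, against 7.73, 12.8 and 17.3 CPM in culture. Dlx2, Dlx5 and Lhx6, further transcription factors of that development, also lay below, and Dlx6 lay inside.

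Transcripts of cholesterol synthesis enzymes were lower in the tissue at nearly every step. Of 21 enzymes of the pathway, 20 lay below the range and Ebp lay above it, with a median log2 difference of -1.64 against 0.00 for all genes. The summed level was 991 CPM in hippocampus, against 3207 to 5317 CPM in culture. Hmgcs1 (chr13:119690379-119708260), which makes a precursor of mevalonate and whose exons overlap another gene, had 133 CPM in hippocampus, against 2039 and 1973 CPM in the ADM controls, 1214 and 1219 CPM in the set 1 controls and 866 and 851 CPM in the set 2 controls. Sqle, which oxidises squalene, had 66.4 CPM in hippocampus, against 266, 299 and 328 CPM in culture. Ebp, a sterol isomerase, had 13.7 CPM in hippocampus, against 6.9, 9.36 and 11.6 CPM in culture. The other hippocampus libraries had sums of 814 CPM (control shRNA with FC) and 906 CPM (ApoE shRNA with FC). Against all 14 culture libraries, which include neurons given ApoE particles, 12 of the 21 enzymes lay below the range.

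Among cholesterol enzymes, only Hmgcs1 held the sterol regulatory element searched (TCACNCCAC, N being any base, on either strand) in its promoter, of 16 enzymes with a promoter in the RefSeq table; 1.44% of 27025 genes hold it in a window of the same length. None of 8 sterol sensing and uptake genes with a promoter in that table held it. The window runs from 250 bases before to 50 after the gene's start, and a match describes letters only. The Hmgcs1 promoter (chr13:119690101-119690400, plus strand, GRCm38.p6, RefSeq) is printed 5′ to 3′ because this enzyme has the largest difference of the pathway, with the element in capitals.
Hmgcs1: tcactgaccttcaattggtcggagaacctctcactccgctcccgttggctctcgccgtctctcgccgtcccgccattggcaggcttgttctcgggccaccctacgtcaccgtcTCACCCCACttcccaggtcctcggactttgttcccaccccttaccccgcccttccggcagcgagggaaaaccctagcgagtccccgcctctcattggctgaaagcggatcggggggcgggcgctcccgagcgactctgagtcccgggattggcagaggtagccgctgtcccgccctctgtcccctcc

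Genes that sense and take up sterols were mixed, 5 below and 4 above of 12 (median -0.60). Srebf2, the transcription factor of cholesterol synthesis, had 246 CPM in hippocampus, against 362, 395 and 409.5 CPM in culture. Insig2, which retains that factor's precursor in the endoplasmic reticulum, had 52.1 CPM in hippocampus, against 20.8, 22.5 and 26.4 CPM in culture. Mylip, a ligase that removes lipoprotein receptors, had 26.5 CPM in hippocampus, against 10.4, 13.8 and 18 CPM in culture. Against all 14 culture libraries, 1 of the 12 lay below.

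Genes of cholesterol export, esterification and hydroxylation lay above the range for 11 of 12, with a median log2 difference of 1.78. In all 3 hippocampus libraries 8 lay above. The summed level, however, was inside the culture range, with 595 CPM in hippocampus, against 254 to 626 CPM in culture. Cyp46a1, which makes the hydroxysterol by which neurons export cholesterol, had 156 CPM in hippocampus, against 40.9, 45 and 100.3 CPM in culture. Lcat, which esterifies cholesterol on lipoproteins, had 21 CPM in hippocampus, against 1.13, 1.64 and 3.98 CPM in culture. Abcg1, a lipid exporter, had 67.3 CPM in hippocampus, against 14.1, 17.3 and 33.4 CPM in culture. Cyp27a1, another sterol hydroxylase, had 4.29 CPM in hippocampus, against 0, 0.182 and 0.283 CPM in culture. Abca1, the transporter that loads lipid onto ApoE, was the exception, with 54.2 CPM in hippocampus, against 66 and 196 CPM in the ADM controls, 294 and 310.3 CPM in the set 1 controls and 334 and 328 CPM in the set 2 controls. It was inside the range in the control shRNA library with FC, at 113 CPM.

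**Figure D4:**
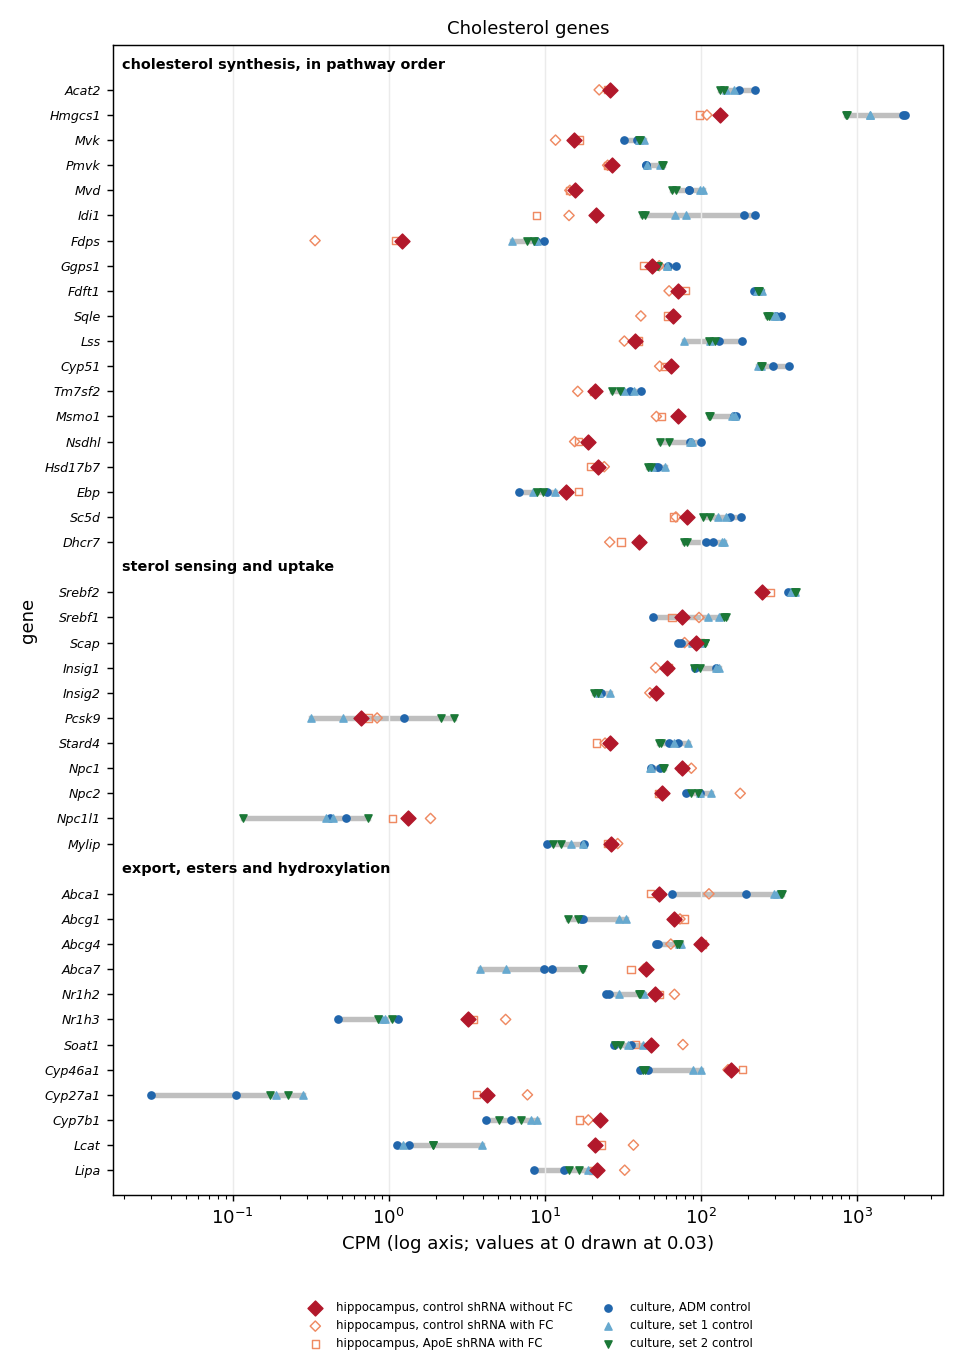
CPM of most genes of cholesterol synthesis (in the order of the pathway), sterol sensing and export on a log axis, with values at 0 drawn at 0.03; symbols and bars are as in the marker plot. The chosen hippocampus library lies left of the culture bars for every synthesis enzyme shown but Ebp, with Ggps1 at the edge, and right of them for every export gene but Abca1.

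Apolipoproteins and ApoE receptors lay on both sides, with 7 of 18 above and 4 below (median 0.03), beside 33.9% and 31% of all genes. Against all 14 culture libraries 4 lay above. Clu, the apolipoprotein clusterin, had 999 CPM in hippocampus, against 55.1, 184 and 552 CPM in culture. Apod, apolipoprotein D of oligodendrocytes and fibroblasts, had 107 CPM in hippocampus, against 0.157, 0.989 and 2.73 CPM in culture. Sorl1, a sorting receptor that binds ApoE, had 372 CPM in hippocampus, against 77.1, 95.6 and 110.4 CPM in culture. Sort1, the sorting receptor sortilin, had 732 CPM in hippocampus, against 213, 226 and 268 CPM in culture. Lrp8, a receptor for reelin and ApoE, had 102 CPM in hippocampus, against 194, 281 and 309 CPM in culture. Vldlr, its partner in reelin signalling, had 99.2 CPM in hippocampus, against 129.6, 149 and 189 CPM in culture. Lrp1, the main endocytic ApoE receptor of neurons, had 697 CPM in hippocampus, against 507, 671 and 807 CPM in culture and was inside the range.

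Of 18 genes of fatty acid and acetyl-CoA metabolism, 11 lay below and 5 above (median -0.56). Acly, which makes cytosolic acetyl-CoA from citrate, had 163 CPM in hippocampus, against 364, 409 and 429 CPM in culture. Acss2, which makes it from acetate, had 47.4 CPM in hippocampus, against 16.6, 17.5 and 23.5 CPM in culture. Fasn, fatty acid synthase, had 377 CPM in hippocampus, against 709, 773 and 894 CPM in culture. Elovl2, an elongase of long fatty acids, had 15.9 CPM in hippocampus, against 69.3, 74.8 and 94.3 CPM in culture. Elovl7, an elongase of oligodendrocytes, had 10.9 CPM in hippocampus, against 2.56, 3.25 and 5.42 CPM in culture. Of the 26 histone acetyltransferases and deacetylases, which use or remove acetyl groups on chromatin, 7 lay above and 8 below (median -0.0037). These counts were near the shares over all genes, 33.9% above and 31% below. Hdac11 had 92 CPM in hippocampus, against 15.8, 21.3 and 35.7 CPM in culture. Hdac2 had 84.3 CPM in hippocampus, against 154, 197 and 291 CPM in culture. Kat6a had 75.2 CPM in hippocampus, against 96.1, 173 and 212 CPM in culture. The acetyltransferases Ep300 and Crebbp were inside the range. Against all 14 culture libraries, 4 of the 26 lay above.

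Genes induced by neuronal activity lay above the range for 22 of 30, with 2 below and a median log2 difference of 1.80. Arc, a synaptic protein made after strong activity, had 312 CPM in hippocampus, against 2.26 and 1.67 CPM in the ADM controls, 3.54 and 1.3 CPM in the set 1 controls and 3.3 and 5.04 CPM in the set 2 controls. Egr4, a zinc finger factor, had 53 CPM in hippocampus, against 0, 0.665 and 1.31 CPM in culture. Fosb, a member of the Fos family, had 30.2 CPM in hippocampus, against 0.47, 1.26 and 3.13 CPM in culture. Nr4a1, an immediate-early nuclear receptor, had 123 CPM in hippocampus, against 7.94, 11.7 and 20.3 CPM in culture. Fos had 46.6 CPM in hippocampus, against 4.49, 14.2 and 25 CPM in culture. Bdnf, the neurotrophin induced by activity, had 32.4 CPM in hippocampus, against 3.19, 6.02 and 16.5 CPM in culture. Inhba, an activin subunit, was below the range, with 7.27 CPM in hippocampus, against 36.6, 47.7 and 53.5 CPM in culture. Atf3, a stress-induced factor, was also below, with 1.1 CPM in hippocampus, against 1.73, 2.56 and 4.92 CPM in culture, but above the range in the control shRNA library with FC, at 7.59 CPM.

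Glucocorticoid-responsive and clock genes were higher in the tissue for 21 of 22, with a median log2 difference of 1.77. Hlf, an output factor of the clock, had 177 CPM in hippocampus, against 5.41, 10.5 and 16.5 CPM in culture. Dbp, its relative, had 34.1 CPM in hippocampus, against 3.21, 4.17 and 11.3 CPM in culture. Tef, another member of that family, had 447 CPM in hippocampus, against 77.3, 96.2 and 119 CPM in culture. Per3, a period gene of the clock, had 67.6 CPM in hippocampus, against 6.61, 10.3 and 16.9 CPM in culture. Nr3c2, the mineralocorticoid receptor that hippocampal neurons express, had 157 CPM in hippocampus, against 10.9, 15.9 and 23.1 CPM in culture. Zbtb16, a gene induced by glucocorticoids, had 89 CPM in hippocampus, against 9.27, 11.6 and 21.8 CPM in culture. Cry1, a repressor of the clock, was the gene below, with 17 CPM in hippocampus, against 18.3, 22.8 and 28.9 CPM in culture, and was inside the range in the other hippocampus libraries. Plin4, another glucocorticoid target, had 5.72 CPM in the chosen hippocampus library and 60.4 and 40.005 CPM in the control shRNA and ApoE shRNA libraries with FC. The time of day at which tissue was taken is not in the labels.

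Promoters of these lists were searched for elements known to regulate activity-induced genes and clock genes. The site of the glucocorticoid receptor was not searched for, so the search does not cover the known element of glucocorticoid targets. The cyclic AMP response element (TGACGTCA) stood in the promoters of 3 of 24 activity-induced genes with a promoter in the RefSeq table, Dusp1, Scg2 and Btg2, and in 2.03% of all 27025 genes. The CArG box, the site of serum response factor, stood in 1 of the 24 (Egr2) and in 1.81% of all genes. The E-box of clock factors (CACGTG) stood in 6 of 19 glucocorticoid and clock genes (Fkbp5, Sgk1, Tef, Cry1, Ciart and Bhlhe41) and in 8.09% of all genes. The D-box (TTATGTAA) stood in 1 of the 19 (Per3) and in 1.11% of all genes. Cry1 is the gene of its list that lay below the range. Both strands were searched, and no match says only that these letters are not in the window. The promoters printed are those of 2 activity-induced and 2 clock genes above the range, from RefSeq on GRCm38.p6, each 5′ to 3′ on the gene's strand with its element in capitals. They are Btg2 (chr1:134079106-134079405, minus strand), Dusp1 (chr17:26508423-26508722, minus strand), Tef (chr15:81802423-81802722, plus strand) and Ciart (chr3:95882179-95882478, minus strand). Ciart, a repressor within the clock, holds 3 E-boxes. RefSeq gives 2 promoters for Tef, and only 1 of them is printed.
Btg2: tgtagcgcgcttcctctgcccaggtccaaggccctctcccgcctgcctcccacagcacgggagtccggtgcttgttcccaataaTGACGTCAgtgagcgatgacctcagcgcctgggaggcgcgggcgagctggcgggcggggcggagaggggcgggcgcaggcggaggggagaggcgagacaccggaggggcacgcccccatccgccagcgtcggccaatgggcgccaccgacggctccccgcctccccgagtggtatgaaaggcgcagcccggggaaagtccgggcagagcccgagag
Dusp1: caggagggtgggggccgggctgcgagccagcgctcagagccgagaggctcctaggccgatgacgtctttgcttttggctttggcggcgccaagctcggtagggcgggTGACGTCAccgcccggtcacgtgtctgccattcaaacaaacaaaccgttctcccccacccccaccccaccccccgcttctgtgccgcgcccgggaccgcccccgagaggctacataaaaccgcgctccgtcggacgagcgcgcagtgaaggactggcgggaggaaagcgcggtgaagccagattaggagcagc
Tef: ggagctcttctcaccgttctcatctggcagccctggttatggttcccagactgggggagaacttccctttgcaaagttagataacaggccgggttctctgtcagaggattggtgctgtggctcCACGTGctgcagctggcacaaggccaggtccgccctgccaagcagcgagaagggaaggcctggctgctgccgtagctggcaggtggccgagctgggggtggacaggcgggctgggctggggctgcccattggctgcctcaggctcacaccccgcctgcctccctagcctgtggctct
Ciart: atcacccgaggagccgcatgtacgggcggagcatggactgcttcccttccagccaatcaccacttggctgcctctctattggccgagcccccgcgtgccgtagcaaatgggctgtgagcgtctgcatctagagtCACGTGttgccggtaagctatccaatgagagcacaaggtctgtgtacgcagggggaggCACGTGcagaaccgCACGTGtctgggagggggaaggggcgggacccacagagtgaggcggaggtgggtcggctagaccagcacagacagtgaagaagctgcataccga
Beside these sequences stand the levels. Btg2, an inhibitor of cell growth induced by activity, had 40.7 CPM in hippocampus, against 9.17, 15 and 20.5 CPM in culture. Dusp1, a phosphatase that ends kinase signalling, had 45.6 CPM in hippocampus, against 13.2, 19.4 and 21.1 CPM in culture. Ciart had 11 CPM in hippocampus, against 1.22, 3.08 and 4.64 CPM in culture.

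**Figure D5:**
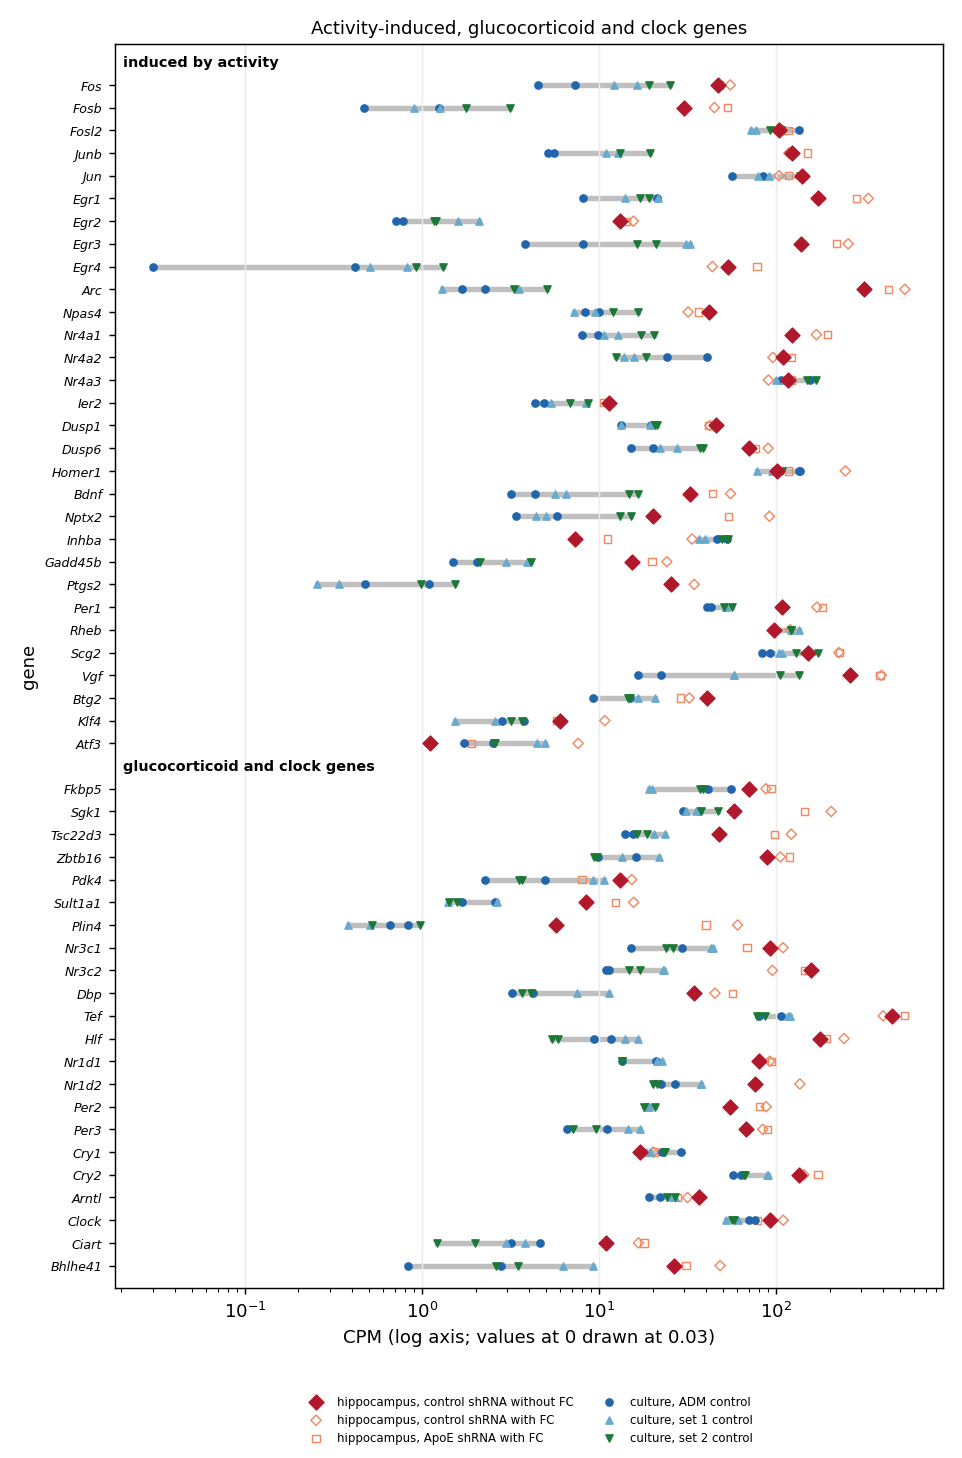
CPM of activity-induced genes (upper block) and of glucocorticoid and clock genes (lower block) on a log axis, with values at 0 drawn at 0.03; symbols and bars are as in the marker plot. Arc, Egr4, Ptgs2 and Fosb show the widest gaps to the culture bars in the upper block and Hlf in the lower block, while Inhba, Atf3 and Cry1 of the chosen library lie to the left.

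Genes of the stress responses were mixed between lists. Of 21 genes of the integrated stress response, which covers amino acid synthesis and transport, 14 lay below and 3 above (median -0.54). Pycr1, an enzyme of proline synthesis, had 2.09 CPM in hippocampus, against 9.1, 10.2 and 15.5 CPM in culture. Mthfd2, a mitochondrial folate enzyme, had 7.49 CPM in hippocampus, against 18.3, 22.2 and 26.3 CPM in culture. Slc7a11, the cystine transporter, was above, with 64.8 CPM in hippocampus, against 14, 30.002 and 48 CPM in culture, and at 23.9 CPM in the ApoE shRNA library. Of 18 chaperones of the endoplasmic reticulum, 8 lay below and 3 above (median -0.16), against 1 below and 10 above when the control shRNA library with FC was read as the tissue. Of 19 heat shock and oxidative stress genes, 8 lay above and 5 below (median 0.27). Hmox1, heme oxygenase, had 4.62 CPM in hippocampus, against 14.3, 31.9 and 46.6 CPM in culture. Hspa1b, an inducible heat shock protein that is nearly identical to Hspa1a, had 17.8 CPM in hippocampus, against 4.13, 5.73 and 7.53 CPM in culture.

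Genes of energy metabolism lay above the range more often than below. Of 23 genes of glycolysis and hypoxia, 14 lay above and 5 below (median 0.46). Aldoa, an aldolase, had 1228 CPM in hippocampus, against 203, 298 and 341 CPM in culture. Pfkp, the platelet form of phosphofructokinase, had 316 CPM in hippocampus, against 694, 766 and 940.2 CPM in culture. Gapdh had 90.3 CPM in hippocampus, against 899 and 769.97 CPM in the ADM controls, 148 and 133 CPM in the set 1 controls and 119 and 98.5 CPM in the set 2 controls. It lay just below a range that the ADM controls stretched upward, and it has many processed copies in the genome. Of 23 nuclear genes of the respiratory chain, 13 lay above and none below (median 0.26). Sdha, a subunit of succinate dehydrogenase, had 402 CPM in hippocampus, against 158, 208 and 223 CPM in culture. Of 12 mitochondrially encoded genes, mt-Co1 alone lay above, with 17987 CPM in hippocampus, against 10297, 10702 and 13658 CPM in culture. It had 9238 CPM in the ApoE shRNA library, in which 9 of the 12 lay below the range. In the chosen library, 8 of the 12 lay above it without the set 1 controls and 4 without set 1 control 1.

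Cytosolic ribosomal protein genes lay below the range for 13 of 22 and above it for none, with a median log2 difference of -0.53. Rplp0, a protein of the ribosomal stalk, had 187 CPM in hippocampus, against 515, 609 and 731 CPM in culture. Without ADM control 1, 20 of the 22 lay below. Many of these genes have processed copies. Of 20 chromatin factors and histone variants, 16 lay below and 1 above, with a median of -1.25. Hmgb2, a chromatin protein of dividing cells, had 3.08 CPM in hippocampus, against 29.3, 44.8 and 53.4 CPM in culture. Uhrf1, which maintains DNA methylation after replication, had 0.55 CPM in hippocampus, against 12.7, 15.7 and 24.8 CPM in culture. Dnmt3a, a DNA methyltransferase of young neurons, had 103 CPM in hippocampus, against 205, 242 and 281 CPM in culture. H1f0, a linker histone of cells that have left the cycle, was the gene above, with 116 CPM in hippocampus, against 50.4, 83.2 and 90.04 CPM in culture.

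Immune genes depended on the libraries chosen. None of 21 interferon-stimulated genes lay outside the range, which the set 2 controls stretched: the list summed to 117 CPM in the hippocampus library, against 72.1 and 112 CPM in the ADM controls, 114 and 100.01 CPM in the set 1 controls and 1234 and 1187 CPM in the set 2 controls. Without the set 2 controls, 9 of the 21 lay above the range, and without ADM control 1, 4 lay below it. Oasl2, an interferon-induced antiviral gene, had 3.58 CPM in hippocampus, against 0.298 and 3.29 CPM in the ADM controls, 1.83 and 1.47 CPM in the set 1 controls and 377 and 378 CPM in the set 2 controls. Of 12 genes of antigen presentation by MHC class I, 2 lay above and 1 below (median 0.43), and 7 lay above without the set 2 controls. B2m, the light chain of MHC class I, had 81.4 CPM in hippocampus, against 13, 65.8 and 145 CPM in culture. The list summed to 289 CPM in the chosen hippocampus library and 4250 CPM in the control shRNA library with FC.

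Of 14 complement and acute phase genes, 6 lay above and none below (median 0.78). C4b, a complement component made in brain, had 151 CPM in hippocampus, against 1.19, 32.5 and 58.6 CPM in culture. C3, the central component, had 2.64 CPM in hippocampus, against 0.476, 6.71 and 18.1 CPM in culture and was inside the range. Against all 14 culture libraries, 2 of the 14 lay above, and without ADM control 1, 2 lay below. Of 10 inflammation genes, 3 lay above and 2 below (median -0.82); without ADM control 1, 4 lay below. Il33, an alarmin held in the nuclei of oligodendrocytes and astrocytes, had 45.3 CPM in hippocampus, against 0.417, 1.02 and 1.64 CPM in culture. Cxcl10, an interferon-induced chemokine, was below, with 0.385 CPM in hippocampus, against 0.952, 4.58 and 9.46 CPM in culture. Of 20 genes of lysosomes and autophagy, 7 lay above and 2 below (median 0.35), beside 33.9% above and 31% below over all genes. Gaa, a lysosomal glucosidase, had 435 CPM in hippocampus, against 85.2, 161 and 188 CPM in culture. Without the set 1 controls 12 of the 20 lay above, 6 lay below without ADM control 1, and against all 14 culture libraries 3 lay above.

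Genes of the extracellular matrix lay on both sides of the range. Of 18 genes of perineuronal nets and brain matrix, 7 lay above and 7 below (median 0.29). Over all genes the shares were 33.9% above and 31% below. Hapln4, a link protein of nets around axons and synapses, had 131 CPM in hippocampus, against 1.1, 1.52 and 2.38 CPM in culture. Hapln2, the link protein of nodes of Ranvier, had 24.1 CPM in hippocampus, against 0.104, 0.235 and 1.07 CPM in culture. Bcan, brevican of the adult matrix, had 313 CPM in hippocampus, against 43.4, 108 and 206 CPM in culture. Ncan, neurocan of the juvenile matrix, had 255 CPM in hippocampus, against 704, 847 and 917 CPM in culture. Has3, a hyaluronan synthase, had 5.12 CPM in hippocampus, against 19.7, 38.4 and 45.2 CPM in culture. The lectican genes Bcan and Ncan thus lay on different sides of the range. Of 24 collagens and fibrous matrix genes, 4 lay above and 5 below (median -0.52). Col6a1, a collagen of vessel walls, had 62.6 CPM in hippocampus, against 3.69, 8.13 and 13.7 CPM in culture. Loxl2, which cross-links collagen, had 0.385 CPM in hippocampus, against 2.32, 4.58 and 10.1 CPM in culture. Without ADM control 1, 12 of the 24 lay below, and without the set 2 controls 7 lay above. Of 20 genes of actin, stress fibres and growth signals, 4 lay above and 6 below (median -0.50). Thbs1, a matrix protein of astrocytes that promotes synapse formation, had 2.48 CPM in hippocampus, against 26.7, 52.3 and 78 CPM in culture. Flna, the actin cross-linker filamin, had 121 CPM in hippocampus, against 248, 375 and 684 CPM in culture. Without ADM control 1, 10 of the 20 lay below.

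Of 19 neuropeptide genes, 9 lay above and none below (median 1.4). Chgb, a protein of secretory granules, had 481 CPM in hippocampus, against 95.2, 112 and 146 CPM in culture. Vgf, a granule peptide precursor induced by activity, had 260.4 CPM in hippocampus, against 16.6, 57.7 and 133 CPM in culture. Cort, the somatostatin-like peptide of interneurons, had 7.49 CPM in hippocampus, against 0.399, 1.36 and 2.3 CPM in culture. Npy, neuropeptide Y, had 41.2 CPM in hippocampus, against 22.2, 33 and 62.4 CPM in culture and was inside the range. Of 21 neurotrophin and growth factor genes, 7 lay above and 6 below (median -0.28), close to the shares over all genes (33.9% and 31%). Against all 14 culture libraries, 4 of the 21 lay above. Fgf1, a fibroblast growth factor, had 54.7 CPM in hippocampus, against 1.96, 8.19 and 18 CPM in culture. Igfbp2, a binding protein of insulin-like growth factors, had 26.2 CPM in hippocampus, against 72.1, 155 and 247 CPM in culture. Igf1 itself had 5.45 CPM in hippocampus, against 12, 14.2 and 19.3 CPM in culture, and 15.5 CPM in the control shRNA library with FC.

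Imprinted genes, which are expressed from the allele of one parent, lay on both sides, with 7 of 19 above and 7 below (median -0.44). These counts were near the shares over all genes, 33.9% above and 31% below. Snhg11, a noncoding host gene of small nucleolar RNA, had 2311 CPM in hippocampus, against 69.4, 204 and 323 CPM in culture. It counts among the 7 above, though it is not an established imprinted gene. Peg10, a gene derived from a retrotransposon, had 18.9 CPM in hippocampus, against 46.4, 105 and 119 CPM in culture. Meg3, a maternally expressed noncoding RNA, had 5064 CPM in hippocampus, against 2165 and 2632 CPM in the ADM controls, 1702 and 2453 CPM in the set 1 controls and 7.86 and 14.5 CPM in the set 2 controls. The set 2 controls stand more than 100-fold below the other cultures there.

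Several lists read otherwise when another hippocampus library was taken as the tissue. With the control shRNA library with FC, 12 of 12 MHC class I genes, 11 of 21 interferon-stimulated genes, 13 of 14 complement genes, 9 of 10 inflammation genes and 15 of 20 lysosome genes lay above the culture range. In the same library 5 of 22 ribosomal protein genes and 9 of 21 stress response genes lay below it, and 8 of 23 nuclear respiratory genes lay above it. It also gave 5 glutamate receptor genes, 6 sodium and calcium channel genes and 2 excitatory neuron genes below, and 3 markers of other regions above. With the ApoE shRNA library, 5 glutamate receptor genes, 7 apolipoprotein and receptor genes and 3 excitatory neuron genes lay below, and 4 growth factor genes and 3 perivascular myeloid genes lay above. The myelin, immature neuron, mature neuron and proliferation genes lay on the same side in all 3 hippocampus libraries, with Gabra3 inside in each.

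By type of transcript, 14342 protein-coding genes were 34% above and 33.2% below the range. Of 511 long intergenic noncoding RNAs, 40.3% lay above and 20.7% below. Of 399 antisense RNAs, 47.1% lay above and 11.8% below, and 72.7% of them overlap an exon of another gene. Of 409 processed pseudogenes, 15.6% lay above and 11.2% below. No source states that counting used the strand, so reads of an antisense gene and its partner cannot be told apart. Among all genes compared, 5906 (35.5%) overlap an exon of another gene. Some markers were near 0 in every library: Trf, the transferrin of oligodendrocytes, had 15 counts in the hippocampus library and 2 to 9 in the culture controls, and Pcp4, a calmodulin regulator of a pyramidal field, had 2 counts in the hippocampus library and 0 to 3 in the culture controls. Both overlap exons of other genes, and the part of that overlap was not tested.

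Gene size differed little between the sets. The 691 protein-coding genes at least 4-fold above the nearest culture control spanned a median of 20.6 kb of genome, against 25.6 kb for all protein-coding genes compared. The 352 genes at least 4-fold below spanned a median of 25.7 kb. Their median exon lengths were 4113 bases above and 4389 bases below, against 4553 bases for all.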

How the data were processed

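Total RNA was extracted with Trizol from hippocampus and from primary neurons, and libraries were made from 2 μg with a NEBNext Ultra kit for Illumina, per the labels' protocols. The authors deposited whole-number read counts per gene in 4 tables. Bowtie2 2.2.3, HISAT2 2.1.0 and HTSeq 0.6.0 and the build mm10 are named in the submitters' processing notes; no source used here gives their roles, the strand setting or any poly(A) selection. The tables were joined by Ensembl gene ID, symbols were taken from a reference table (22572 of 22612 IDs matched), and CPM were computed on library totals with Python 3.11.15 and pandas 2.3.3. Log2 differences, the 4-fold counts and the ranking of genes used a prior of 0.5 counts. Printed ratios to the nearest culture control are of CPM with no prior, and their exact 95% binomial intervals came from scipy 1.17.1. The scaling factors of the alternatives came from edgeR 4.0.16 in R 4.3.3; no model was fitted and no test made, since the tissue has 1 library. The 4-fold counting was tried on simulated counts with known changes. All culture controls there were drawn from a common mean, without the differences between sets seen here. The counts of genes merely outside the range were not tested that way.

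The gene lists, the named genes and the comparison itself were chosen with earlier results of these data known. Over all genes, the 15 with the largest ratio to the nearest culture control were named above the range (at least 100 counts in tissue) and below it (at least 5 CPM in every culture control), leaving out predicted genes. From each list up to 5 members on each side and 2 inside could be named, with Apoe and each cell type's defining marker always given. Genes given with values outside that rule were chosen after their values were seen: Aqp4, Atf3, Btg2, C3, Ciart, Cnp, Cxcl10, Cyp27a1, Dbp, Dlg4, Dnmt3a, Dusp1, Fa2h, Fasn, Fibcd1, Fos, Gap43, Gria1, Loxl2, Mog, Nr4a1, Oasl2, Pcna, Pcp4, Rab3a, Rgs14, Slc12a2, Sox10, Sox11, Sqle, Stmn3, Tef, Trf and Tubb3. Promoters are RefSeq sequences. Some list members count in the lists but are not reported here by name.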

Additional observations from a re-analysis of the deposited data

How the results depend on the processing

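No paired analysis was possible because the tissue has 1 library and no test was made. Across 24 settings the share of genes outside the range that lay above it was 46.7% to 57.1%. Leaving out each culture control in turn gave 5728 to 6028 genes above, 5275 to 5595 below, 809 to 858 at least 4-fold above and 399 to 439 at least 4-fold below. A minimum of 10 CPM left 11472 genes, with 3659 above, 404 at least 4-fold above and 244 at least 4-fold below. A 2-fold limit gave 1961 genes above and 1223 below. Genes without exon overlap (10753; an alternative chosen after seeing the data, as were genes with 1 position in all tables and sides shared by all 3 hippocampus libraries) gave 3600 above and 3374 below. Taking the control shRNA library with FC as the tissue gave 1259 genes at least 4-fold above. The other settings moved these 4 counts by less than 1.5 times. Scaling by TMM, by median of ratios or without mitochondrial genes moved the median of all genes to -0.02, 0.02 and 0.02 (log2).

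Of list medians across settings, 990 moved by less than the culture spread, 67 by more, and 6 turned direction; of named genes' log2 differences these were 7814, 436 and 14. With the control shRNA library with FC, the log2 difference turned to 2.13 for the inflammation list, 0.39 for endoplasmic reticulum chaperones, 0.49 for Edem1, -0.20 for Fgf13, 0.053 for Gclm, 0.13 for Igf1, 0.88 for Npc2, 0.12 for Pdia4, 0.50 for Psme1, 0.26 for Tagln2 and 0.014 for Tbr1. With the ApoE shRNA library it turned to -0.37 for the lymphocyte list and for Jchain, 0.088 for Atp6v0d1, -0.11 for Fgf2, -0.33 for Slc7a11 and -0.21 for mt-Co1. Among genes without exon overlap it turned to -1.56 for oligodendrocyte precursors, 0.11 for inflammation and 0.090 for the chaperones. The cause was not tested. Genes with few counts in culture have ratios with wide counting intervals, and 5953 genes lay under the minimum of 1 CPM in all 7 libraries.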
